A study of Mus musculus with 4 samples.

Results

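The 8 genes described here are Lpl, its secreted inhibitor Angptl4, and 6 lipid and fuel genes that are known targets of peroxisome proliferator-activated receptors (PPARs): Pdk4, Cyp4a14, Cyp4a10, Cpt1a, Plin2 and Mogat1. They are 8 of the 16706 genes in the matrix, and all 8 were found by symbol. They were picked because several had already been seen to differ between the drug libraries and the vehicle library, so their differences from vehicle are given as a description, with no test.

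Single kidney cells were measured from male C57Bl/6 mice of 9 weeks in 4 groups, with 2 animals per group. The first group received panobinostat (15 mg/kg), the second givinostat (10 mg/kg), the third ruxolitinib (60 mg/kg) and the last distilled water as vehicle. Treatment began on day 1 after injection of an anti-GBM serum, which targets the basement membrane of the glomerulus and was given to all groups as a model of glomerulonephritis, and the mice were sacrificed on day 7. All animals, vehicle included, carried the genotype Pax2.rtTA;TetO.Cre;R26.Confetti, in which the Pax2 promoter drives the inducible activator of Cre and Cre switches on the Confetti colour reporter. No group without serum is included, so no healthy level of these genes is given. Panobinostat and givinostat are hydroxamate inhibitors of histone deacetylases, given at different doses, and ruxolitinib inhibits the Janus kinases JAK1 and JAK2.

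Each group has 1 library, and the labels do not say whether it pools both animals. There is therefore no replicate and no test. The 95% intervals in brackets reflect counting error alone, and any difference given is one between single libraries. The 3 drug libraries are set against the same vehicle library, so a shift shared by all of them may lie in the vehicle library alone. The library taken as vehicle is the one whose cell names carry no drug name.

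PPAR-alpha is a nuclear receptor that binds fatty acids and, as a pair with the retinoid X receptor RXR, switches on genes of fatty acid uptake, oxidation and storage. The proximal tubule takes most of its energy from fatty acid oxidation and is a main site of PPAR-alpha in the kidney. Lipoprotein lipase, the product of Lpl, releases fatty acids from the triglycerides of lipoproteins, and ANGPTL4, itself induced through PPARs, inactivates it.

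The receptor pair binds repeats of the half-site AGGTCA, and the annotated promoters of the genes that had an entry are shown to let a reader look for it. Promoters from 250 bases before to 50 bases after the start were available from RefSeq (GRCm38.p6) for 4 of the 8 genes. They are chr6:5496229-5496528 on the minus strand (Pdk4), chr19:3323051-3323350 on the plus strand (Cpt1a), chr4:86670010-86670309 on the minus strand (Plin2) and chr1:78510810-78511109 on the plus strand (Mogat1). Capitals mark the half-site in either direction (AGGTCA, or TGACCT where it lies on the other strand), 5′ to 3′ on the gene's strand.
Pdk4: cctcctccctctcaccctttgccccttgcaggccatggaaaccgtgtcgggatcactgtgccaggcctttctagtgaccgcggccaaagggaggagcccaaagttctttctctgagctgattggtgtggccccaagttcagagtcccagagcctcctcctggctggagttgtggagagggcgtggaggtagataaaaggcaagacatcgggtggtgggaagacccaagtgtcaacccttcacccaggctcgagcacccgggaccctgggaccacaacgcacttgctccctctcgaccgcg
Cpt1a: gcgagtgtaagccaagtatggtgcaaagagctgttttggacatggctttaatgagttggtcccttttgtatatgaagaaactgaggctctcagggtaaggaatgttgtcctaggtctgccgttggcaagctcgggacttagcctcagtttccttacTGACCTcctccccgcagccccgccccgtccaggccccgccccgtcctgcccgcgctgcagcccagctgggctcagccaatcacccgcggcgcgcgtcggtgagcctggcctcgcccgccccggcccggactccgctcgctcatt
Plin2: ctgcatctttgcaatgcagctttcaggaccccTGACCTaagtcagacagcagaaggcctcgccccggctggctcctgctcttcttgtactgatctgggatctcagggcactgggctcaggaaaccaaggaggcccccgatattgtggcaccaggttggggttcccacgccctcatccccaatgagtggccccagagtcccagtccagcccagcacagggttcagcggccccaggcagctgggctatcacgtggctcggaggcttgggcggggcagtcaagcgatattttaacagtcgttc
Mogat1: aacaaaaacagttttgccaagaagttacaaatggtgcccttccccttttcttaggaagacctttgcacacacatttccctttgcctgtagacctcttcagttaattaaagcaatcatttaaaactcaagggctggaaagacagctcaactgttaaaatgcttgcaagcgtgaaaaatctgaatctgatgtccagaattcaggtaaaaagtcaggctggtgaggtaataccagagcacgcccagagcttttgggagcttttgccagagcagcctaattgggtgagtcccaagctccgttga
Cpt1a held 1 half-site, which began 94 bases before the start, and Plin2 held 1, which began 218 bases before it. Pdk4 and Mogat1 held 0 in this window. Of 32851 mouse promoters of the same length, 16.3% held the half-site on either strand. The direct repeat AGGTCANAGGTCA, where N is any base, was found in 0.0396% of all promoters and in none of these 4.

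After filtering, 15777 cells were kept: 4396 in the panobinostat library, 3472 in the givinostat library, 3979 in the ruxolitinib library and 3930 in the vehicle library. Their totals lay between 36861583 and 45075309 UMIs (unique molecular identifiers, each standing for 1 captured RNA). Levels are given as CPM, a gene's UMIs scaled to 1000000 UMIs in the same cells of that library. The libraries differed in depth, with median UMIs per cell of 6568.5 (panobinostat), 10020.5 (givinostat), 8370.0 (ruxolitinib) and 7957.5 (vehicle). Of all cell barcodes, 20 occurred in more than 1 library. The libraries also fell into pairs at a few genes with near-identical copies, noticed after the values were seen. Tpm3-rs7 was at 3.96 (panobinostat), 53.8 (givinostat), 53.8 (ruxolitinib) and 4.14 CPM (vehicle). The panobinostat comparison stays within 1 such pair and the other comparisons cross it. Whether this bears on the 8 genes was not tested.

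Cells were clustered without the 8 genes and without the other listed genes of lipid metabolism, and clusters were named from fixed markers. Proximal tubule-like cells numbered 2524 (panobinostat), 1198 (givinostat), 1757 (ruxolitinib) and 1796 (vehicle), in 8 clusters. Clusters 0, 5 and 14 were S1-like (the early segment) and cluster 20 was S3-like (the straight late segment). Clusters 1, 2, 3 and 8 met the limits for no segment and are called intermediate, which gives no position along the tubule. Of these, clusters 1, 2 and 8 scored highest for S3 markers, and cluster 3 had 0 raised markers of its best-scoring segment. The 7 proximal tubule markers were all detected, with summed levels of 12784 (panobinostat), 12961 (givinostat), 11212 (ruxolitinib) and 11998 CPM (vehicle). Values are given only where a library had at least 50 cells, which leaves the givinostat library without an S3-like value.

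In proximal tubule-like cells, Lpl was higher in the panobinostat library than in vehicle, and Angptl4, Pdk4, Cyp4a14 and Mogat1 were lower. In the givinostat library Cyp4a14, Plin2 and Mogat1 were lower, Cyp4a14 the most, at 0.255 of its vehicle level. The ruxolitinib library had less Angptl4, Pdk4, Cyp4a14, Cyp4a10 and Mogat1. Cpt1a was within 1.2-fold of vehicle in every drug library. These statements use a limit of 1.5-fold on log2 ratios with 5 CPM added to each level, among genes with at least 20 CPM in one of the compared libraries, a limit that all 8 genes passed. With it, 5 of 8 genes were past the limit in the panobinostat library (1 higher, 4 lower), where 1.42% of all 5545 measured genes were (0.289% higher and 1.14% lower). The givinostat library had 3 of 8, all lower, against 1.32% of 5695 measured genes (0.527% higher and 0.79% lower). The ruxolitinib library had 5 of 8, all lower, against 1.67% of 5810 measured genes (1.12% higher and 0.551% lower). The 8 genes were chosen partly on these same contrasts, so nothing is read from the excess. Their median log2 ratio was -0.50 (panobinostat), -0.41 (givinostat) and -0.66 (ruxolitinib), where the median of all measured genes was 0.02, 0.06 and 0.08 in the same order of drugs. Scaling by TMM totals would lower every ruxolitinib log2 ratio by 0.13 and every givinostat one by 0.09. It would raise every panobinostat one by 0.02, with 3 of the 8 genes instead of 4 then past the limit on the lower side.

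**Figure D1:**
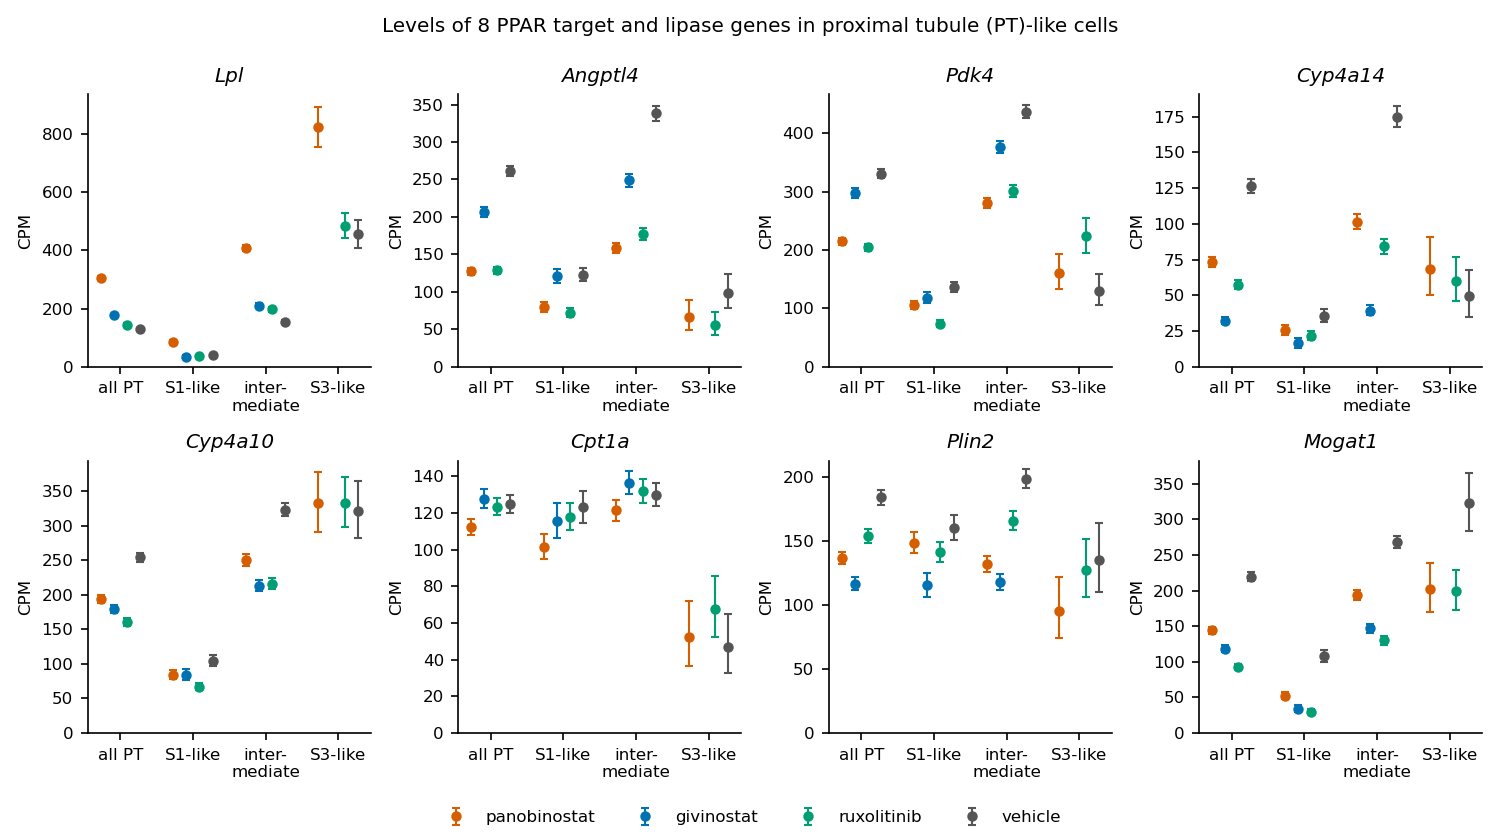
Level of each gene in CPM (linear axes from 0) in all proximal tubule-like (PT) cells and in the S1-like, intermediate and S3-like groups, for the panobinostat, givinostat, ruxolitinib and vehicle libraries. Points are 1 library each and bars are exact Poisson 95% intervals; Lpl of panobinostat stands above the other libraries in every group, up to 822 CPM in S3-like cells.

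Lpl (chromosome 8, 68880491 to 68907448 on GRCm38, plus strand) was at 306 CPM in the panobinostat library, 176 in the givinostat library, 145 in the ruxolitinib library and 129 in the vehicle library, from 7080, 3278, 3146 and 2703 UMIs in that order. The panobinostat library was highest, givinostat came next, and ruxolitinib and vehicle were lowest. Its ratio to vehicle was 2.38 [2.28 to 2.49], and 1 of 5545 measured genes had a higher log2 ratio. The givinostat ratio was 1.37 [1.30 to 1.44] and the ruxolitinib ratio 1.12 [1.07 to 1.18]. TMM totals brought the ruxolitinib ratio to 1.03, and weighting each library to a common mix of clusters brought it to 1.26. Cells with at least 1 Lpl UMI, after each cell was thinned to 2500 UMIs, made up 39.9% of proximal tubule-like cells in the panobinostat library, 30.4% in givinostat, 23.3% in ruxolitinib and 22.4% in vehicle. T-like cells, which should lack the gene, had 3.26%, 2.93%, 1.33% and 1.29% in that order. Without thinning the shares in proximal tubule-like cells were 63.2% (panobinostat), 62.8% (givinostat), 49.6% (ruxolitinib) and 49.3% (vehicle), at median depths of 7683.5, 12897.5, 10378 and 9758.5 UMIs. The T-like cells had median depths of 4189.5, 7350.0, 5276 and 4725 UMIs, and unthinned shares of 4.78%, 5.01%, 2.49% and 3.23%. The near-equal unthinned shares of panobinostat and givinostat therefore stand beside a large gap in depth.

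Within each library Lpl was lower in S1-like than in intermediate cells, and it was highest in S3-like cells where these had a value. In S1-like cells it was at 84.5 (panobinostat), 34.3 (givinostat), 36.1 (ruxolitinib) and 39.8 CPM (vehicle). In intermediate cells it was at 409 (panobinostat), 209.8 (givinostat), 198 (ruxolitinib) and 154 CPM (vehicle). In S3-like cells it was at 822 (panobinostat), 484 (ruxolitinib) and 455 CPM (vehicle). The intervals of the 3 groups of cells did not overlap within any library that had them. The excess in the panobinostat library was present in all of them, with ratios of 2.12 [1.84 to 2.45] in S1-like, 2.66 [2.53 to 2.80] in intermediate and 1.81 [1.58 to 2.07] in S3-like cells. All 8 clusters were above vehicle and past 1.5-fold, between 1.81 in cluster 20 and 3.15 in cluster 8. In the givinostat library, 6 of 7 clusters were above vehicle and cluster 14 was below it. The interval lay above 1 in only 3 of them, the intermediate clusters 1, 2 and 3. In the ruxolitinib library, 6 of 8 clusters were above vehicle, with a highest ratio of 1.36 in cluster 2. The interval lay above 1 in 4 of them, all intermediate. S1-like cells had ratios of 0.860 [0.706 to 1.05] for givinostat and 0.906 [0.767 to 1.07] for ruxolitinib.

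Angptl4 (chromosome 17, 33773750 to 33781830, minus strand) was at 127 CPM in the panobinostat library, 206 in the givinostat library, 128 in the ruxolitinib library and 261 in the vehicle library. Panobinostat and ruxolitinib had nearly the same low level, and givinostat lay between them and vehicle. The ratios were 0.487 [0.466 to 0.510] for panobinostat, 0.788 [0.756 to 0.821] for givinostat and 0.491 [0.469 to 0.514] for ruxolitinib. Only 6 of 5545 measured genes had a lower log2 ratio in the panobinostat library, and 7 of 5810 in the ruxolitinib library. Angptl4 was below vehicle in 8 of 8 clusters in the panobinostat library (0.523 to 0.748) and in 8 of 8 in the ruxolitinib library (0.494 to 0.887). In the givinostat library the cluster ratios lay between 0.858 and 1.10, and only 1 of 7 had an interval below 1. By segment the levels were 79.5 (panobinostat), 121 (givinostat), 72.1 (ruxolitinib) and 122 CPM (vehicle) in S1-like cells. Intermediate cells had 158 (panobinostat), 249 (givinostat), 177 (ruxolitinib) and 338 CPM (vehicle). S3-like cells were at 66.7 (panobinostat), 55.8 (ruxolitinib) and 98.8 CPM (vehicle).
The lipase and its inhibitor thus stood on opposite sides of vehicle in the panobinostat library. In the ruxolitinib library the inhibitor was lower while the lipase was within 1.5-fold of vehicle. The ratio of the lipase there was 1.12 over all proximal tubule-like cells and 1.29 in intermediate cells.

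Pdk4 (chromosome 6, 5483351 to 5496309, minus strand) encodes a kinase that inactivates pyruvate dehydrogenase and so spares glucose when fatty acids are burned. Its level was 215 CPM in the panobinostat library, 298 in the givinostat library, 205 in the ruxolitinib library and 331 in the vehicle library. The ratios were 0.650 [0.627 to 0.674] for panobinostat, 0.901 [0.869 to 0.933] for givinostat and 0.619 [0.596 to 0.643] for ruxolitinib. Most proximal tubule Pdk4 came from clusters 2 and 14. Of all proximal tubule UMIs these clusters held 23.1% and 7.24% (panobinostat), 27.0% and 5.77% (givinostat), 24.6% and 6.37% (ruxolitinib) and 33.9% and 7.28% (vehicle). Clusters 2 and 14 held 75.8% and 11.2% of the proximal tubule Pdk4 UMIs in the panobinostat library, 82.7% and 8.10% in givinostat, 76.8% and 11.7% in ruxolitinib and 83.5% and 10.4% in vehicle. Within cluster 2 Pdk4 was at 707 (panobinostat), 912 (givinostat), 640.5 (ruxolitinib) and 815 CPM (vehicle), and within cluster 1 it was at 8.80, 16.9, 2.06 and 12.7 CPM in that order.

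Clusters 2 and 14 were also the clusters richest in the list of dissociation stress and immediate early genes, of which all 18 are in the matrix. Unlike the lipid genes, this list was not left out of the clustering, so clusters that differ in it may be partly built in. The summed level of that list was 13740 (panobinostat), 15005 (givinostat), 15015 (ruxolitinib) and 15616 CPM (vehicle) in cluster 2. In cluster 14 it was 13926 (panobinostat), 14413 (givinostat), 14152 (ruxolitinib) and 15137 CPM (vehicle). In clusters 1, 3 and 5 it lay between 262 and 418 CPM over all libraries. Cluster 2 was a smaller share of proximal tubule-like cells in the drug libraries, at 13.8% (panobinostat), 17.4% (givinostat), 15.6% (ruxolitinib) and 22.8% (vehicle), and its cells were deep, with median UMIs between 14549 and 23465. Without clusters 2 and 14, a setting chosen after the data were seen, the Pdk4 ratio was 1.17 for panobinostat, 1.19 for givinostat and 0.993 for ruxolitinib. With each library weighted to a common mix of clusters it was 0.886 (panobinostat), 1.09 (givinostat) and 0.795 (ruxolitinib). Within clusters, Pdk4 was above vehicle in 4 of 8 and below it in 4 of 8 for panobinostat. It was above vehicle in 5 of 7 for givinostat and below it in 6 of 8 for ruxolitinib. These counts include clusters 1, 3 and 5, where Pdk4 was below 20 CPM in every library. Of the other clusters, 0, 8 and 20 were above vehicle for panobinostat, and 2 and 14 below. For givinostat 2 and 8 were above, and 0 and 14 below. For ruxolitinib 8 and 20 were above, and 0, 2 and 14 below. For Angptl4 the ratios without clusters 2 and 14 were 0.564 (panobinostat), 1.05 (givinostat) and 0.626 (ruxolitinib), and for Lpl 2.33 in the panobinostat library.

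**Figure D2:**
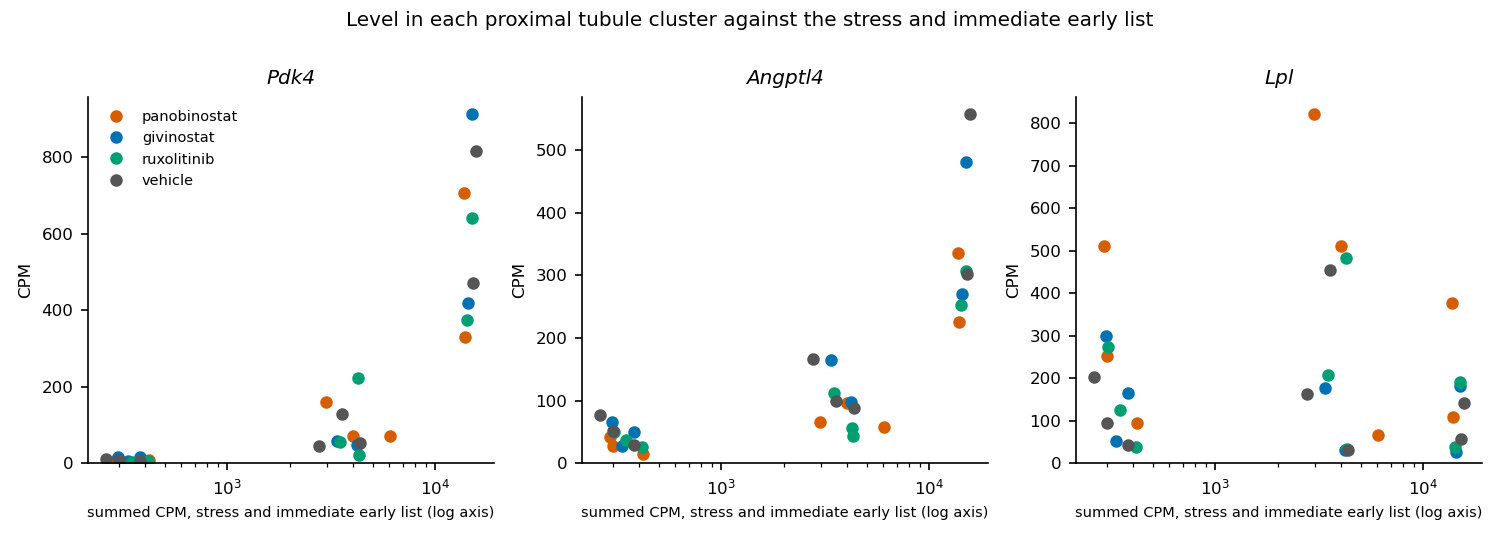
Level of Pdk4, Angptl4 and Lpl in CPM in each proximal tubule cluster (1 point per cluster and library) against the summed CPM of the dissociation stress and immediate early list in the same cells (log axis). Pdk4 and Angptl4 are highest in clusters 2 and 14, at the right. Lpl is not ordered by that list, and within every cluster its panobinostat level is above its vehicle level. The list was not left out of the clustering.

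Cpt1a (chromosome 19, 3322334 to 3385733, plus strand) encodes the outer-membrane carnitine palmitoyltransferase, which admits long-chain fatty acids to mitochondria. It was at 112 CPM in the panobinostat library, 128 in the givinostat library, 123 in the ruxolitinib library and 125 in the vehicle library. The libraries differed little, with ratios of 0.9001 [0.852 to 0.951] for panobinostat, 1.02 [0.967 to 1.08] for givinostat and 0.989 [0.936 to 1.04] for ruxolitinib, and the givinostat ratio was 0.959 with TMM totals. No cluster was past 1.5-fold in any drug library, and the cluster ratios lay between 0.754 and 1.45. S1-like cells had 102 (panobinostat), 116 (givinostat), 118 (ruxolitinib) and 123 CPM (vehicle), and S3-like cells had less, at 52.2 (panobinostat), 67.8 (ruxolitinib) and 46.8 CPM (vehicle).

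Cyp4a14 (chromosome 4, 115486200 to 115496142, minus strand) and Cyp4a10 (chromosome 4, 115518264 to 115533649, plus strand) lie 22122 bases apart and encode fatty acid omega-hydroxylases, enzymes that are classic targets of PPAR-alpha in mouse liver and kidney. Cyp4a14 was at 73.5 CPM in the panobinostat library, 32.2 in the givinostat library, 57.4 in the ruxolitinib library and 126 in the vehicle library. Every drug library was below vehicle and givinostat was lowest. The ratios were 0.582 [0.547 to 0.619] for panobinostat, 0.255 [0.233 to 0.279] for givinostat and 0.454 [0.424 to 0.486] for ruxolitinib. In the givinostat library 0 of 5695 measured genes had a lower log2 ratio. All 7 givinostat clusters were below vehicle, between 0.141 in cluster 1 and 0.820 in cluster 5, and 6 of them were past 1.5-fold. After thinning, 12.7% (panobinostat), 5.34% (givinostat), 10.2% (ruxolitinib) and 19.8% (vehicle) of proximal tubule-like cells had a Cyp4a14 UMI. The T-like shares were 1.74% (panobinostat), 0.488% (givinostat), 0.498% (ruxolitinib) and 0.646% (vehicle).

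Cyp4a14 was highest in intermediate cells, at 101 (panobinostat), 39.3 (givinostat), 84.1 (ruxolitinib) and 175 CPM (vehicle). In S1-like cells it was at 25.8 (panobinostat), 16.3 (givinostat), 21.4 (ruxolitinib) and 35.6 CPM (vehicle). The lower level did not hold in S3-like cells, which had 68.2 (panobinostat), 59.8 (ruxolitinib) and 49.4 CPM (vehicle), with ratios of 1.38 [0.880 to 2.17] and 1.21 [0.793 to 1.87]. Those ratios rest on 47, 60 and 38 UMIs, and their intervals include 1. Whether S3-like cells differ from the other proximal tubule groups was not tested.

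Cyp4a10 was at 194 CPM in the panobinostat library, 179 in the givinostat library, 161 in the ruxolitinib library and 254 in the vehicle library. Its ratios were nearer to 1 than those of Cyp4a14: 0.763 [0.733 to 0.794] for panobinostat, 0.706 [0.676 to 0.737] for givinostat and 0.633 [0.606 to 0.660] for ruxolitinib, of which only ruxolitinib was past 1.5-fold. It was below vehicle in 7 of 8 panobinostat clusters, 7 of 7 givinostat clusters and 7 of 8 ruxolitinib clusters, and in each library with a value the exception was S3-like cluster 20. There it was at 332 (panobinostat), 332 (ruxolitinib) and 321 CPM (vehicle). Its S1-like levels were 84.4 (panobinostat), 84.1 (givinostat), 67.1 (ruxolitinib) and 104 CPM (vehicle). Of the 50-base stretches in the last 500 bases of its transcripts, where 3′ reads fall, 5.99% also occur in the neighbouring Cyp4a31, so the split of reads between those genes is uncertain. Cyp4a31, named here for that overlap, was at 191 (panobinostat), 227 (givinostat), 184 (ruxolitinib) and 237 CPM (vehicle).

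Plin2 (chromosome 4, 86648386 to 86670060, minus strand) encodes perilipin 2, a coat protein of lipid droplets. It was at 137 CPM in the panobinostat library, 117 in the givinostat library, 154 in the ruxolitinib library and 184 in the vehicle library. The ratios were 0.743 [0.709 to 0.779] for panobinostat, 0.633 [0.6001 to 0.667] for givinostat and 0.836 [0.798 to 0.876] for ruxolitinib. The lowest panobinostat and givinostat ratios were in stress-rich cluster 2 (0.606 and 0.561), where Plin2 was at 169.6 (panobinostat), 157 (givinostat), 241 (ruxolitinib) and 279.7 CPM (vehicle). In clusters 1, 3 and 5 Plin2 was between 0.923 and 1.33 of vehicle for panobinostat, and between 0.765 and 1.01 for givinostat. Without clusters 2 and 14 the ratios were 0.999 (panobinostat), 0.800 (givinostat) and 0.948 (ruxolitinib).

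Mogat1 (chromosome 1, 78510991 to 78538173, plus strand) encodes a monoacylglycerol acyltransferase, which makes diacylglycerol on the way to triglyceride. It was at 144 CPM in the panobinostat library, 118 in the givinostat library, 92.4 in the ruxolitinib library and 219 in the vehicle library. All drug libraries were below vehicle, with ratios of 0.657 [0.628 to 0.687] for panobinostat, 0.538 [0.511 to 0.566] for givinostat and 0.421 [0.399 to 0.444] for ruxolitinib. Only 4 of 5810 measured genes had a lower log2 ratio in the ruxolitinib library. Mogat1 was below vehicle in 8 of 8 panobinostat, 7 of 7 givinostat and 8 of 8 ruxolitinib clusters, and past 1.5-fold in 5, 7 and 8 of them. The ratios were lowest in S1-like cells, which had 52.6 (panobinostat), 34.1 (givinostat), 29.99 (ruxolitinib) and 108 CPM (vehicle). There they were 0.488 [0.432 to 0.551] for panobinostat, 0.316 [0.266 to 0.374] for givinostat and 0.278 [0.241 to 0.321] for ruxolitinib. In intermediate cells they were 0.724 [0.689 to 0.761], 0.548 [0.518 to 0.579] and 0.485 [0.457 to 0.515] in the same order, so the intervals of the S1-like and intermediate ratios did not overlap in any drug library. That difference between the cell groups shares the vehicle cells and was not tested further. S3-like cells had 202 (panobinostat), 199 (ruxolitinib) and 323 CPM (vehicle).

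**Figure D3:**
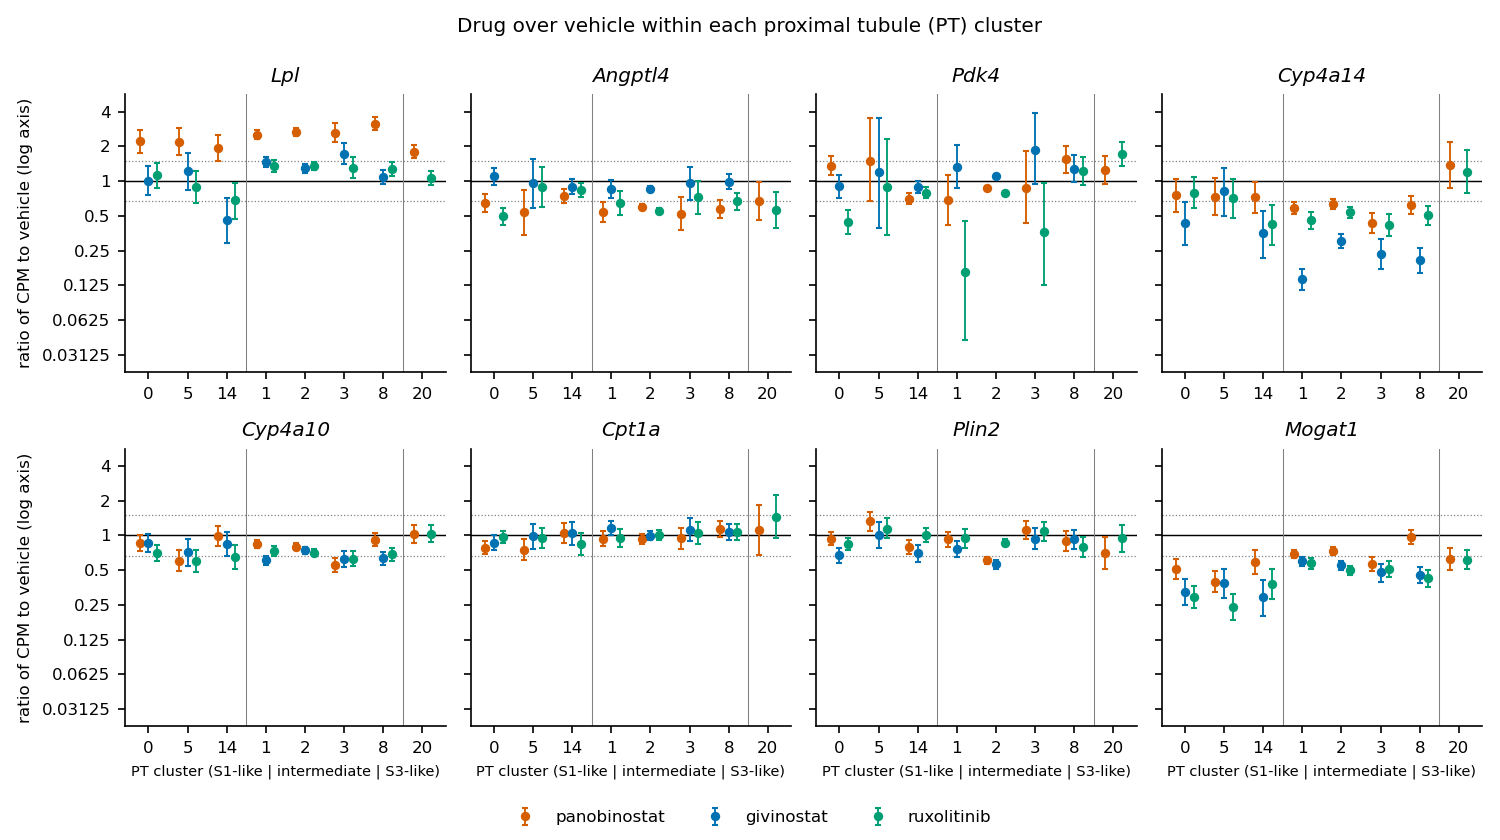
Ratio of each gene's CPM in the panobinostat, givinostat and ruxolitinib library to vehicle (log axis) within each proximal tubule cluster, ordered S1-like, intermediate and S3-like, with exact 95% intervals for counting error. Dotted lines mark 1.5-fold; Lpl of panobinostat is above 1 and Mogat1 of every drug below 1 in each cluster, while Pdk4 lies on both sides.

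The counts by segment were as follows. In S1-like cells 3 of 8 genes were past 1.5-fold in the panobinostat library (Lpl higher, Angptl4 and Mogat1 lower), beside 1.03% of all measured genes (0.349% higher and 0.682% lower). For givinostat 2 were (Cyp4a14 and Mogat1, lower), beside 2.42% (1.82% higher and 0.602% lower). For ruxolitinib 5 were (Angptl4, Pdk4, Cyp4a14, Cyp4a10 and Mogat1, lower), beside 1.34% (0.791% higher and 0.549% lower). In intermediate cells 4 genes were past the limit for panobinostat (Lpl higher, Angptl4, Pdk4 and Cyp4a14 lower), beside 2.3% of all measured genes (0.355% higher and 1.95% lower). Givinostat had 4 (Cyp4a14, Cyp4a10, Plin2 and Mogat1, lower), beside 1.68% (0.711% higher and 0.966% lower). Ruxolitinib had 3 (Angptl4, Cyp4a14 and Mogat1, lower), beside 1.92% (1.18% higher and 0.742% lower).

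Red cell RNA differed between libraries in the same cells. The 5 erythroid markers were all detected in proximal tubule-like cells, at summed levels of 112 (panobinostat), 249.7 (givinostat), 372 (ruxolitinib) and 49.2 CPM (vehicle). The 6 macrophage markers were at 11.8 (panobinostat), 13.4 (givinostat), 12.2 (ruxolitinib) and 8.81 CPM (vehicle), with none at 0. The part of either in the results was not tested. Adipocyte markers were not analysed here.

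Outside the proximal tubule some of the genes were above the level at which proximal tubule RNA appears in all cells, and others near it. For 5 proximal tubule genes (Gpx3, Kap, Slc34a1, Lrp2 and Miox), T-like cells had 2.84% to 7.73% of the proximal tubule level over the 4 libraries, and macrophage-like cells 8.14% to 20.4%. Lpl in macrophage-like cells was at 101% (panobinostat), 164% (givinostat), 154% (ruxolitinib) and 188% (vehicle) of its proximal tubule level, and Plin2 in monocyte-like cells at 233% (panobinostat), 261% (givinostat), 193% (ruxolitinib) and 187% (vehicle). Of the UMIs of Angptl4, Cyp4a14, Cyp4a10, Mogat1 and Pdk4, between 82.7% and 92.7% lay in proximal tubule-like cells in each library. For Lpl the share was 79.1% (panobinostat), 53.2% (givinostat), 59.1% (ruxolitinib) and 50.4% (vehicle). All UMIs of those cells were 62.7% (panobinostat), 41.3% (givinostat), 50.7% (ruxolitinib) and 51.7% (vehicle) of their library.

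Lpl was detected in both immune and tubular cells. Macrophage-like cells had 309 (panobinostat), 288 (givinostat), 223 (ruxolitinib) and 242 CPM (vehicle), with ratios of 1.27 [1.09 to 1.48], 1.19 [1.04 to 1.36] and 0.919 [0.795 to 1.06]. Their larger cluster, 10, had 335 (panobinostat), 285 (givinostat), 161 (ruxolitinib) and 264 CPM (vehicle), with ratios of 1.27 [1.08 to 1.495], 1.08 [0.933 to 1.25] and 0.612 [0.515 to 0.727]. The ruxolitinib library was thus past 1.5-fold lower in that cluster and not in the class, of whose Lpl UMIs cluster 10 held 240 of 404 in the ruxolitinib and 306 of 351 in the vehicle library. Monocyte-like cells had 123 (panobinostat), 139.6 (givinostat), 132 (ruxolitinib) and 144 CPM (vehicle). Dendritic-like cells, unlike the proximal tubule, were below vehicle in every drug library, with 161 (panobinostat), 163 (givinostat), 105 (ruxolitinib) and 249 CPM (vehicle). Of its UMIs there, 333 of 341 (panobinostat), 489 of 511 (givinostat), 315 of 325 (ruxolitinib) and 602 of 612 (vehicle) lay in cluster 9, at 201 (panobinostat), 203 (givinostat), 144 (ruxolitinib) and 345 CPM (vehicle), with ratios of 0.582 [0.508 to 0.666], 0.586 [0.519 to 0.662] and 0.417 [0.363 to 0.478]. Loop of Henle-like cells were also below vehicle, with 270.3 (panobinostat), 234 (givinostat), 227 (ruxolitinib) and 318 CPM (vehicle) and ratios of 0.8497 [0.748 to 0.963], 0.736 [0.661 to 0.819] and 0.714 [0.645 to 0.791]. Distal convoluted tubule-like cells had 372 (panobinostat), 292 (givinostat), 246 (ruxolitinib) and 243 CPM (vehicle), a panobinostat ratio of 1.53 [1.30 to 1.82]. Collecting duct principal or connecting tubule-like cells were also above vehicle, with 83.4 (panobinostat), 56.2 (ruxolitinib) and 37.9 CPM (vehicle). Their ratios were 2.20 [1.62 to 2.98] for panobinostat and 1.49 [1.09 to 2.03] for ruxolitinib, and the givinostat library had too few such cells for a value. The panobinostat excess was thus not confined to the proximal tubule, and the part of free tubule RNA in it was not tested. In the vehicle library the order of these classes and the proximal tubule groups was S3-like, loop of Henle-like, dendritic-like, distal convoluted tubule-like, macrophage-like, intermediate, monocyte-like and S1-like cells. Left out of it are NK-like (40.9 CPM), collecting duct principal or connecting tubule-like (37.9), intercalated-like (33.3) and T-like cells (10.1). Within that order, dendritic-like, distal convoluted tubule-like and macrophage-like cells had overlapping intervals, as did intermediate and monocyte-like cells.

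Plin2 was highest in monocyte-like cells, at 319 (panobinostat), 305 (givinostat), 297 (ruxolitinib) and 344 CPM (vehicle). Macrophage-like cells had 137 (panobinostat), 143 (givinostat), 127 (ruxolitinib) and 135 CPM (vehicle), so the givinostat library was not low there, with a ratio of 1.06 [0.881 to 1.27]. Cpt1a was highest in distal convoluted tubule-like cells, at 193 (panobinostat), 215 (givinostat), 196 (ruxolitinib) and 232 CPM (vehicle), and loop of Henle-like cells had 168 (panobinostat), 145 (givinostat), 160.3 (ruxolitinib) and 163 CPM (vehicle).

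Pdk4 was also present in loop of Henle-like cells, at 152 (panobinostat), 159 (givinostat), 156 (ruxolitinib) and 128 CPM (vehicle). In distal convoluted tubule-like cells it was at 67.3 (panobinostat), 84.3 (givinostat), 19.3 (ruxolitinib) and 122 CPM (vehicle), a ruxolitinib ratio of 0.158 [0.0843 to 0.274] from 14 UMIs in the ruxolitinib and 138 in the vehicle library. Macrophage-like cells had 13.5 (panobinostat), 37.6 (givinostat), 15.4 (ruxolitinib) and 51.1 CPM (vehicle). Angptl4 in loop of Henle-like cells was at 64.9 (panobinostat), 42.7 (givinostat), 27.7 (ruxolitinib) and 31.3 CPM (vehicle).

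**Figure D4:**
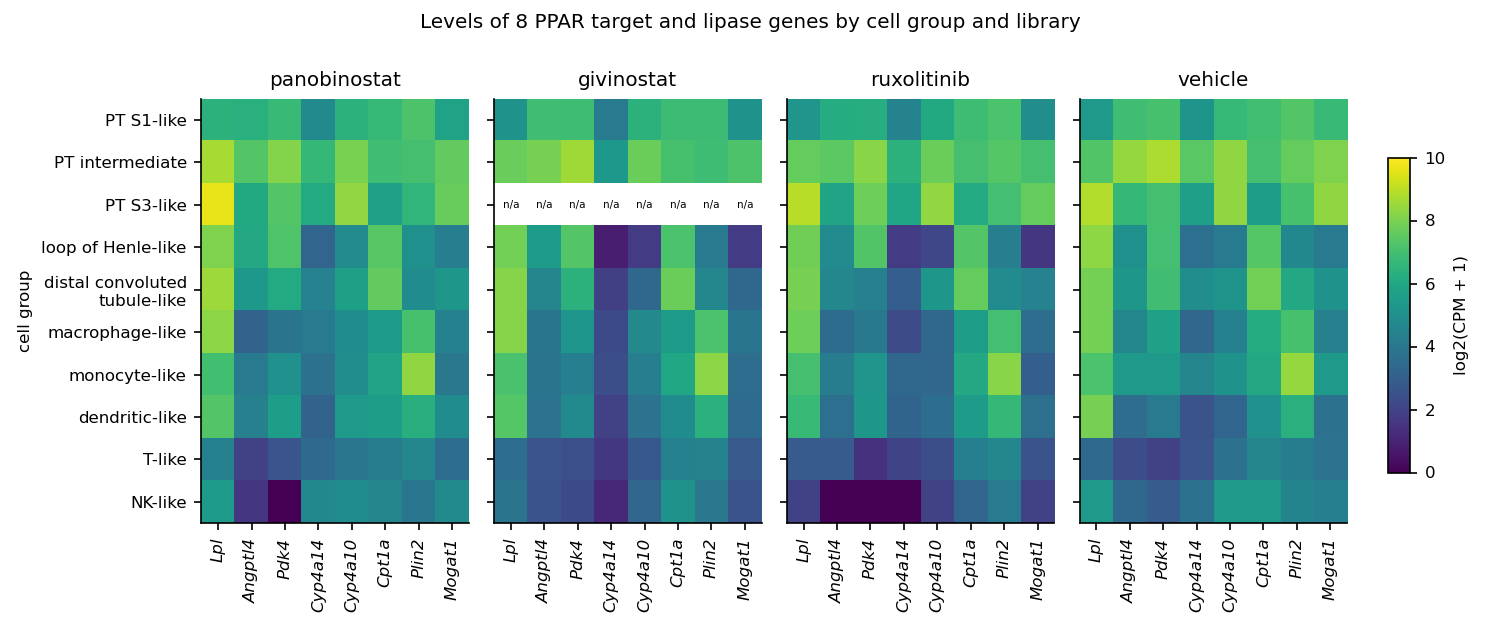
Level of each gene as log2(CPM + 1) by cell group (rows), for the panobinostat, givinostat, ruxolitinib and vehicle libraries; n/a marks the S3-like group of givinostat, which had fewer than 50 cells. Lpl is seen in tubular and myeloid groups, Plin2 is highest in monocyte-like cells, and the Cyp4a genes and Mogat1 are low outside the proximal tubule.

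Genes that act beside these 8 were counted by list in proximal tubule-like cells. Of 40 other PPAR-alpha target genes, 32 were measured, and 24 (panobinostat), 27 (givinostat) and 29 (ruxolitinib) of these were below vehicle. With TMM totals the counts were 22, 30 and 31. Their median log2 ratios were -0.10 (panobinostat), -0.20 (givinostat) and -0.24 (ruxolitinib). The share of all measured genes below vehicle is not given here, and every drug library is set against the same vehicle library. Nothing is therefore read from the counts below vehicle. Past 1.5-fold, all lower, were 2 genes of this list in the panobinostat library, among them Acot3. The givinostat library had 4, among them Acaa2, Vnn1 and Ucp2, and the ruxolitinib library 5, among them Vnn1, Acot1, Acot2 and Ucp2. With TMM totals the counts were 1, 6 and 5. Of all measured genes, 1.14% (panobinostat), 0.79% (givinostat) and 0.551% (ruxolitinib) were past 1.5-fold lower with total UMIs. Ucp2, a carrier of the inner mitochondrial membrane, was at 67.0 (panobinostat), 28.5 (givinostat), 24.6 (ruxolitinib) and 97.1 CPM (vehicle). Vnn1, a pantetheinase, was at 73.8 (panobinostat), 51.1 (givinostat), 50.1 (ruxolitinib) and 79.1 CPM (vehicle). Acot1 and Acot2, acyl-CoA thioesterases, were at 70.5 and 53.2 CPM in the ruxolitinib library, against 114 and 92.1 CPM in vehicle. Acaa2, the mitochondrial thiolase, was at 275 CPM in the panobinostat library and 145 CPM in the givinostat library, against 234 CPM in vehicle.

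Abundant genes of that list, Slc27a2 and Acadm, stayed within 1.2-fold of vehicle. Slc27a2, a fatty acid transporter, was at 2026 (panobinostat), 2662 (givinostat), 2190.4 (ruxolitinib) and 2366 CPM (vehicle). Acadm, the medium-chain acyl-CoA dehydrogenase, was at 552 (panobinostat), 485 (givinostat), 476 (ruxolitinib) and 489 CPM (vehicle).

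Of 13 PPAR receptors, partners and coregulators, 8 were measured and 0 were past 1.5-fold in any drug library. In panobinostat 7 of 8 were below vehicle (5 with TMM totals). Above vehicle were 7 of 8 in givinostat (5 with TMM totals) and 8 of 8 in ruxolitinib (6 with TMM totals). The share of all measured genes on each side of vehicle is not given here, so nothing is read from these counts. Ncor1, a corepressor, was at 196 (panobinostat), 216 (givinostat), 224 (ruxolitinib) and 197 CPM (vehicle). The coactivator Ppargc1a was at 58.2 (panobinostat), 69.5 (givinostat), 72.5 (ruxolitinib) and 64.9 CPM (vehicle), and the acetyltransferase Ep300 at 46.9, 62.7, 66.3 and 51.2 CPM in that order. Ppara itself, named after its values were seen, was at 49.1 (panobinostat), 40.2 (givinostat), 59.3 (ruxolitinib) and 52.6 CPM (vehicle).

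Of 23 lipase partners, inhibitors and lipoprotein receptors, 5, 6 and 7 were measured in the panobinostat, givinostat and ruxolitinib comparisons. Past 1.5-fold were 0, 0 and 2 of them, and with TMM totals 1 was, in ruxolitinib. Those past it were higher than vehicle, beside 1.12% of all measured genes in the ruxolitinib library with total UMIs. Apolipoprotein E (Apoe), a ligand of lipoprotein receptors, was at 60.6 (panobinostat), 73.5 (givinostat), 283 (ruxolitinib) and 92.9 CPM (vehicle). Sel1l, which is needed for the folding and secretion of the lipase, was at 61.2 (panobinostat), 72.4 (givinostat), 82.5 (ruxolitinib) and 50.7 CPM (vehicle). The fatty acid receptor Cd36 was at 203 (panobinostat), 232 (givinostat), 166 (ruxolitinib) and 195 CPM (vehicle), and the lipoprotein receptor Vldlr at 63.2, 82.1, 87.5 and 63.2 CPM in that order.

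The neighbouring steps of the pathway had no gene past 1.5-fold in any drug library with total UMIs. This covers 7 measured genes of the pyruvate dehydrogenase complex and its regulators, 6 of the carnitine shuttle, 7 of the lipid droplet and 8 of triglyceride synthesis. With TMM totals 1 lipid droplet gene in givinostat and 3 in ruxolitinib were past it, all lower. Pdha1 was at 235 (panobinostat), 208 (givinostat), 227 (ruxolitinib) and 209 CPM (vehicle). Pdhb was between 99.6 and 107 CPM, and Dlat between 79.4 and 93.3 CPM. In the carnitine shuttle Crot was between 303 and 363 CPM, Slc22a5 between 68.5 and 105 CPM, and Cpt2 between 77.7 and 92.9 CPM. Cideb, a droplet protein, was between 160.2 and 188 CPM. G0s2, an inhibitor of the droplet lipase ATGL, was at 152 (panobinostat), 182 (givinostat), 139.5 (ruxolitinib) and 199.6 CPM (vehicle). Fitm1 was at 138 (panobinostat), 87.6 (givinostat), 85.8 (ruxolitinib) and 128 CPM (vehicle). Among the triglyceride genes Agpat3 was between 136 and 163 CPM, Lpin1 between 63.8 and 86.7 CPM, and Lpin2 between 60.1 and 83.0 CPM.

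Most genes of the stress and immediate early list were lower in the drug libraries over all proximal tubule-like cells. Of 16 measured genes, 14, 15 and 13 were below vehicle in the panobinostat, givinostat and ruxolitinib libraries. Past 1.5-fold were 4 in panobinostat (Ier2, Atf3, Zfp36 and Btg2, lower) and 2 in givinostat (Atf3 and Zfp36, lower). Ruxolitinib had 5 (Junb, Ier2 and Atf3 lower, the heat shock genes Hspa1a and Hspa1b higher). With TMM totals the counts were 4, 4 and 7. Of all measured genes, 1.42% (panobinostat), 1.32% (givinostat) and 1.67% (ruxolitinib) were past 1.5-fold in either direction with total UMIs. Their share below vehicle is not given here, so nothing is read from the counts of listed genes below it. Jun was at 1963 (panobinostat), 1974 (givinostat), 1918 (ruxolitinib) and 2209 CPM (vehicle), Fos at 733, 899, 837 and 1069 CPM, and Jund at 677, 679.7, 639 and 756 CPM in that order. The summed list was not lower in every cluster: in cluster 8 it was at 4043 (panobinostat), 3376 (givinostat), 3495 (ruxolitinib) and 2751 CPM (vehicle), and in cluster 0 at 6085 (panobinostat), 4223 (givinostat), 4297 (ruxolitinib) and 4329.8 CPM (vehicle). The part of this list in the Pdk4 and Angptl4 ratios was not tested beyond the values without clusters 2 and 14.

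**Figure D5:**
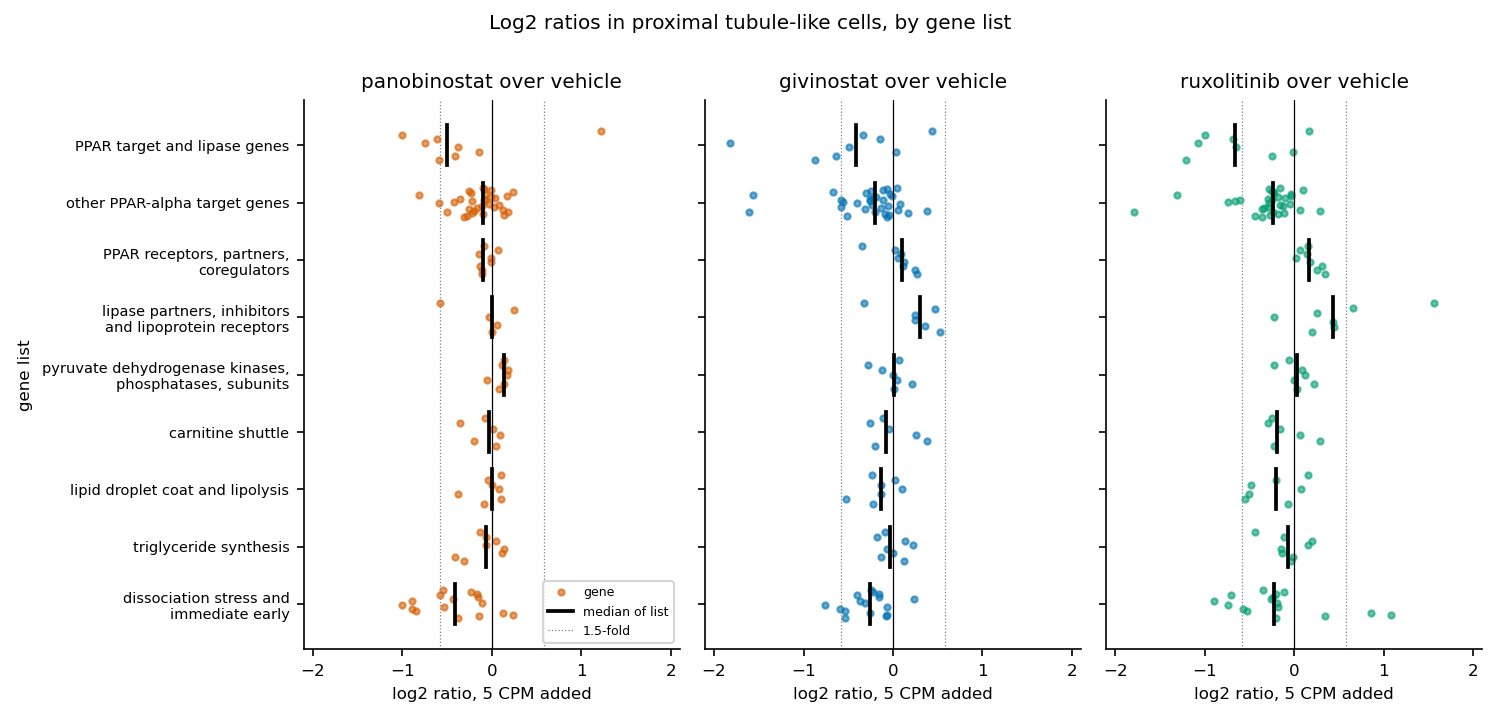
Log2 ratios to vehicle with 5 CPM added, for each measured gene (points) of the 8 genes and of 8 related lists in proximal tubule-like cells, for panobinostat, givinostat and ruxolitinib; black bars are list medians and dotted lines mark 1.5-fold. The medians of the 8 genes are -0.50, -0.41 and -0.66, and the genes were chosen with these contrasts known; single genes of the other lists lie as far out, as Ucp2 and Apoe do for ruxolitinib.

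Over the 54 combinations of cell class or segment and library with at least 50 cells, the genes whose level was most like each of the 8 were found by Pearson's r of log2(CPM + 5) among 9162 candidates. Cells of 1 library share its depth and free RNA, so these r describe the points and carry no p. Cyp4a10 was closest to Slc22a2 (r = 0.98) and Mogat1 (0.97), and Mogat1 to Cyp4a10 (0.97) and Acy3 (0.97). Cyp4a14 was closest to Acy3 (0.89) and Mogat1 (0.89). Pdk4 was closest to Cyr61 (0.89) and Angptl4 (0.87), and Angptl4 to Nr1h4 (0.88) and Mlxipl (0.88). For Cpt1a the gene named is BC034090 (0.91). Plin2 was closest to Cd302 (0.91) and Cyp27a1 (0.89), and Lpl to Lactb (0.75) and Vamp8 (0.74).

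Within the proximal tubule alone, over 31 pairs of cluster and library, the 8 genes fell into sets by how their levels went together. These points hold the same segment and library differences on which the genes were chosen, so the r are a description only. Angptl4 and Pdk4 went together (r = 0.89), and Plin2 with both (0.63 with Angptl4, 0.68 with Pdk4). Cyp4a10 went with Mogat1 (0.91), Lpl (0.84) and Cyp4a14 (0.82). Between the sets r was low, as for Lpl and Angptl4 (0.02) and for Pdk4 and Mogat1 (-0.03). Cpt1a was weakly related to the rest, with r between -0.27 and 0.46. Points of 1 cluster in different libraries share the segment, and points of 1 library its depth.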

How the data were processed

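The deposited matrix holds raw UMI counts per gene and cell, made from 10x Genomics 3′ libraries per the labels' protocols. Cell Ranger 3.0.1 and mm10 are named in the submitters' processing notes. Such counts fall near transcript ends, so levels are not compared between genes. Filters used before deposit are not given in the sources used here.

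Cells with at least 200 genes, 500 UMIs and under 50% mitochondrial UMIs were kept (15777 of 16003; 109 panobinostat, 2 givinostat, 115 ruxolitinib and 0 vehicle cells were left out). They were clustered in scanpy 1.11.5 with leidenalg 0.10.2 on 2000 variable genes, 30 principal components and 15 neighbours, at resolution 1.0 (Python 3.11.15). Of 31 clusters, 29 were named from fixed markers. The naming thresholds were chosen with the data in view: at least 3 markers over 1 log2 unit above other clusters, and for segments at least 3 over 0.5 with a lead of 1.0. Other processing could give other names. Scrublet marked 0.0682% (panobinostat), 2.30% (givinostat), 0.302% (ruxolitinib) and 0.0254% (vehicle) of cells as doublets, so it scarcely worked in 3 libraries. No cells were left out for that mark. Clusters with a median Scrublet score above 0.2 were left unnamed, however. This kept cluster 28 (127 cells, median score 0.307) out of every class.

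UMIs were summed by library and cell group, with exact Poisson intervals for CPM, exact conditional binomial intervals for ratios and exact Clopper-Pearson intervals for shares (95%, counting error only). No test was made. The calls were run on simulated counts that held counting error alone. That run cannot speak to differences between animals or libraries, which it did not contain. Alternatives were other filters, resolutions, scalings (edgeR 4.0.16 TMM, DESeq2 1.42.0 size factors, R 4.3.3), weightings, pseudocounts and minimum levels. Of each other list, the 3 genes highest in proximal tubule-like cells were named, with those past 1.5-fold; a few genes that this rule names are not reported here. The members and the lists were chosen with earlier results of these data known, and the genes used to gauge free tubule RNA after the data were seen. Gene positions are from the GRCm38 annotation, matched by symbol for 16519 of 16706 genes.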

Additional observations from a re-analysis of the deposited data

Results flagged for a closer look

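Each result here is a gene whose ratio to vehicle lay on opposite sides of 1 in 2 groups of cells, past 1.5-fold in both and with neither interval reaching 1. In no case was the difference between the groups of cells tested, since each drug has 1 library, and 95% intervals cover counting error only.

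Lpl in the panobinostat library was 0.644 [0.563 to 0.737] of vehicle in dendritic-like cells, where the ratio in proximal tubule-like cells was 2.38. In the givinostat library Lpl was 1.72 [1.40 to 2.13] of vehicle in intermediate cluster 3 and 0.463 [0.291 to 0.717] in S1-like, stress-rich cluster 14. Angptl4 in the panobinostat library was 2.07 [1.51 to 2.84] of vehicle in loop of Henle-like cells, where the ratio in proximal tubule-like cells was 0.487. That ratio rests on 84 UMIs in the panobinostat and 84 in the vehicle library. The level in loop of Henle-like cells was 50.9% of the proximal tubule level in the panobinostat library and 12.0% in vehicle, beside 14.3% and 6.24% for the proximal tubule gene Gpx3.

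Pdk4 in dendritic-like cells was 2.97 [2.03 to 4.41] of vehicle in the panobinostat library and 2.41 [1.66 to 3.55] in the ruxolitinib library, where the proximal tubule ratios were 0.650 and 0.619. Mogat1 in dendritic-like cells was 2.24 [1.43 to 3.57] of vehicle in the panobinostat library, where the proximal tubule ratio was 0.657. Proximal tubule genes moved with these in the same cells. In dendritic-like cells Slc34a1 was at 21.8% (panobinostat), 11.1% (ruxolitinib) and 5.94% (vehicle) of its proximal tubule level, and Gpx3 at 27.3%, 13.2% and 9.48%. Mogat1 was at 19.6%, 13.0% and 5.75%, and Pdk4 at 21.9%, 18.7% and 4.803%, in the same order. Opposite sides of 1, with intervals clear of 1 but the proximal tubule ratio within 1.5-fold, were also seen in dendritic-like cells. Cyp4a10 for panobinostat was 4.90 [3.02 to 8.31] of vehicle there and 0.763 in proximal tubule-like cells, and at 21.6% of its proximal tubule level in the panobinostat library and 3.37% in vehicle. Pdk4 for givinostat was 1.67 [1.13 to 2.51] and 0.901, and Lpl for ruxolitinib 0.422 [0.368 to 0.484] and 1.12, in the same 2 groups of cells. Lpl for givinostat was 0.655 [0.581 to 0.738] and 1.37. Both ratios were within 1.5-fold for Cpt1a with panobinostat, at 1.43 [1.06 to 1.95] and 0.9001. The same held for Plin2 with ruxolitinib, at 1.24 [1.03 to 1.49] and 0.836. Such opposite sides were not confined to dendritic-like cells, and not every case is listed. Lpl in loop of Henle-like cells was 0.736 [0.661 to 0.819] for givinostat and 0.714 [0.645 to 0.791] for ruxolitinib. Cyp4a10 for panobinostat was 2.45 [1.36 to 4.42] in collecting duct principal or connecting tubule-like cells and 1.69 [1.05 to 2.70] in loop of Henle-like cells. The part of free tubule RNA in the ratios of this paragraph was not tested further.

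Pdk4 in the ruxolitinib library was 1.72 [1.35 to 2.20] of vehicle in S3-like cluster 20 and 0.441 [0.347 to 0.559] in S1-like cluster 0. The summed stress list was at 4274 (ruxolitinib) and 3551 CPM (vehicle) in cluster 20, and at 4297 (ruxolitinib) and 4330 CPM (vehicle) in cluster 0.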

How the results depend on the processing

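The 24 ratios of the 8 genes in proximal tubule-like cells were recomputed under 13 other settings. Of 13 ratios past 1.5-fold as reported, 12 stayed on the same side of 1 in every setting and 8 stayed past 1.5-fold in every setting. The exception in direction was Pdk4 for panobinostat, at 0.650 as reported and 1.17 without clusters 2 and 14, a setting chosen after the data were seen. The panobinostat count of 5 genes past 1.5-fold fell to 3 with a common cluster mix and to 3 with a pseudocount of 20 CPM. With TMM totals or DESeq2 size factors it was made up of 1 gene higher and 3 lower. The ruxolitinib count of 5 was 3 with the common cluster mix, and the cause was not tested. Without clusters 2 and 14 the counts were 4 (panobinostat), 2 (givinostat) and 4 (ruxolitinib). Over the settings the ratio of Lpl for panobinostat lay between 2.33 and 2.53, Angptl4 for panobinostat between 0.420 and 0.611, Cyp4a14 for givinostat between 0.210 and 0.285, and Mogat1 for ruxolitinib between 0.358 and 0.484. No paired analysis was possible because each group has 1 library, for which reason no replicate could be left out either. S3-like values rest on at most 79 cells per library, and low counts there leave wide intervals, as for Cyp4a14.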
